A study of Mus musculus with 4 samples.

Results

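The genes described here encode the cytosolic protein synthesis machinery: ribosomal proteins, initiation factors, elongation factors, a release factor and poly(A)-binding proteins. They were taken by a rule on gene symbols, which was itself written with earlier results of these data known. The rule took ribosomal protein symbols (Rpl or Rps with a number and at most the ending a, l, x or l1, Rplp and Rpsa), which leaves out the S6 kinases. It also took symbols beginning with Eif1 to Eif6, Eef, Etf1, Gspt1, Pabpc, Abtb, Denr or Mcts1, and 4 matching genes (Eif1, Eif5, Eif2s3x and Rps3) were set aside. This gave 56 of the 4878 genes in the table, made up of 20 ribosomal protein genes and 36 factor genes. The cells were mouse embryonic fibroblasts at passages 5 to 8, grown in 10 cm plates and transfected with siRNA by Lipofectamine RNAimax. Controls received a negative control siRNA (2 libraries), and the knockdown group received an siRNA against eIF1A labelled Si-eIF1A (X+18) (2 libraries). Bulk MARS-seq counts the 3′ ends of polyadenylated transcripts, and the comparison asks how mRNA levels differ after eIF1A knockdown.

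The ribosome is built from a small subunit, which reads the mRNA, and a large subunit, which joins amino acids. Initiation begins when eIF2, recharged with GTP by eIF2B, brings the initiator tRNA to the small subunit, while eIF3 holds the complex together and the eIF4 factors bind the capped mRNA. eIF1A sits in the decoding site of the small subunit and keeps it competent to scan for a start codon. Elongation factors then deliver aminoacyl-tRNAs and move the ribosome along the mRNA. Most ribosomal protein mRNAs begin with a terminal oligopyrimidine tract, a C followed by a run of pyrimidines, through which growth signalling controls their translation.

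Values are normalised counts. Reads recovered from them numbered 2152331 to 2595625 per library over the genes of the table. Whether replicate libraries stem from separate cultures is not stated in the labels. The p-values therefore measure only how far these libraries spread, which may be technical. The targeted genes were not analysed here, so the degree of knockdown was not checked. Of 10 fibroblast markers, Vim and Fn1 were in the table, and the other 8 were not analysed here, nor were 16 markers of epithelial, endothelial, blood and muscle cells. Vim and Fn1 summed to 16860 to 22330 in controls and 9775 to 12460 in knockdowns. Its part in the results below was not tested.

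In the deposited scaling, most of the 20 ribosomal protein genes in the table rose in knockdown cells, and a smaller share of factor genes did. Ribosomal protein genes outside the table are not covered here. Of the 53 members with a mean value of at least 5, 19 rose and 0 fell (limma on log2(value + 1), Benjamini-Hochberg adjusted p under 0.05). Among all 4605 genes tested, 15.9% rose and 21.6% fell. By kind, 12 of 20 ribosomal protein genes and 7 of 33 tested factor genes rose. At an unadjusted p under 0.05 there were 16 and 13 such genes, in either direction, against 2110 of all 4605 genes tested. The median log2 fold change was 0.87 for ribosomal protein genes, 0.34 for factor genes and −0.01 for all genes tested. The 20 ribosomal protein genes took 1.55% and 2.61% of the counts in controls 1 and 2 and 4.85% and 3.93% in knockdowns 1 and 2. The 36 factor genes took 1.66% and 1.98% in controls and 2.69% and 2.70% in knockdowns. Wilson 95% intervals of these shares were at most 0.0287 percentage points to either side and cover counting error only. A level in a bulk library does not separate fewer cells of a type from less RNA per cell.

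The scaling of the libraries bears on how many genes are called. At equal library totals, 28.2% of all genes rose and 13.1% fell. The median over all genes tested was then 0.34, against −0.01. In that setting 18 of 20 ribosomal protein genes and 18 of 33 factor genes rose, with medians of 1.22 and 0.69. Relative to the median of all genes, the ribosomal median was 0.88 in the deposited scaling and 0.89 at equal totals. On that basis the factor median was 0.35 in both. Equal totals multiply each library by a constant, which shifts all genes nearly alike, so these distances could hardly differ. Under quantile normalisation the distances were 1.07 (ribosomal) and 0.55 (factor), and in edgeR on recovered reads 0.79 and 0.36. Leaving out a library gave ribosomal distances from 0.64 to 1.23 and factor distances from 0.30 to 0.43.

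Among the large subunit genes described here, 8 of 15 rose, against 15.9% of all genes tested. Rpl4, which encodes a core protein of the large subunit (mm10 chromosome 9, 64173375 to 64178666, plus strand), had 1829 and 3166 in controls (2497 ± 946, SD, n = 2) and 7223 and 6042 in knockdowns (6633 ± 835). Both knockdown libraries were well above both controls, a rise of 2.74-fold (log2 fold change 1.46, SE 0.26, adjusted p = 2.17e-04). Rpl6 went from 378 and 516 to 1040 and 1028, with controls and knockdowns well apart and knockdowns nearly equal (2.34-fold, adjusted p = 2.38e-04). Rpl9 went from 1001 and 1199 to 2731 and 1742 (1.99-fold, adjusted p = 0.0027). Rpl12, a protein of the stalk base where elongation factors dock, had 2083 and 5299 in controls and 10421 and 5874 in knockdowns. Its groups did not overlap, but control 2 and knockdown 2 were close (2.36-fold, adjusted p = 0.0076). Rpl17, which lines the rim of the peptide exit tunnel, showed the same order of libraries, with 139 and 476 in controls and 1179 and 529 in knockdowns (3.06-fold, adjusted p = 0.0038).

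Smaller rises were called for Rpl7 (1.60-fold, adjusted p = 0.0322), Rpl36a (1.71-fold, 0.0443) and Rpl7l1, a paralogue of Rpl7 (1.79-fold, 0.0178). Rpl7 had 391 and 250 in controls and 531 and 471 in knockdowns. Control 1 was the higher control for Rpl7, whereas Rpl7l1 and Rpl36a had their lowest value in control 1. Rpl7l1 had 97.4 and 149 in controls and 191 and 245 in knockdowns, and Rpl36a had 70.9 and 119, then 134 and 185.

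The other 7 large subunit genes did not pass. Rpl41, which encodes a very short basic peptide and had the most reads of all members, had 15086 and 19606 in controls and 29691 and 25893 in knockdowns. Its groups did not overlap, and it missed the threshold narrowly (log2 fold change 0.69, 95% interval 0.11 to 1.27, adjusted p = 0.058). Rpl3, a protein near the catalytic centre, went from 2182 and 2996 to 4640 and 3295, also without overlap (adjusted p = 0.0532). In the other 5, Rpl11, Rpl13a, Rpl34, Rpl37 and Rpl39, the groups overlapped. Rpl11, known also for binding Mdm2 when it is free of the ribosome, had 853 and 2914 in controls and 3591 and 2428 in knockdowns (adjusted p = 0.0594). Rpl13a had 4970 and 13622, then 15459 and 8627. Rpl39 had 36.4 and 213 in controls, the widest gap between controls among the ribosomal protein genes at 5.84-fold, and 178 and 85.6 in knockdowns. Rpl37 had 2494 and 1329, then 2313 and 2534. Rpl34 had 3.94 and 7.30, then 9.69 and 5.43, with as few as 4 reads in a library. Its interval of −1.12 to 1.87 on the log2 scale shows that a change of either sign was not detectable at this depth.

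Among the small subunit genes described here 4 of 5 rose, with log2 fold changes of 1.01 to 1.30, against 15.9% of all genes tested. Rps6, whose protein is phosphorylated by S6 kinase downstream of mTOR, had 89.6 and 151 in controls and 356 and 232 in knockdowns (2.46-fold, adjusted p = 0.0014). Rps24 went from 156 and 225 to 473 and 427 (2.40-fold, adjusted p = 3.75e-04). Both genes had every knockdown library above every control library. Rps27a, which is made as a fusion with ubiquitin, went from 98.4 and 194 to 288 and 406 (2.46-fold, adjusted p = 0.0016). Rps27l, a paralogue of Rps27 known as a p53 target, went from 151 and 166 to 406 and 251 (2.01-fold, adjusted p = 0.0043). The exception was Rps9, with 1293 and 2464 in controls and 3330 and 2415 in knockdowns, where control 2 lay above knockdown 2 (log2 fold change 0.67, adjusted p = 0.0586).

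**Figure D1:**
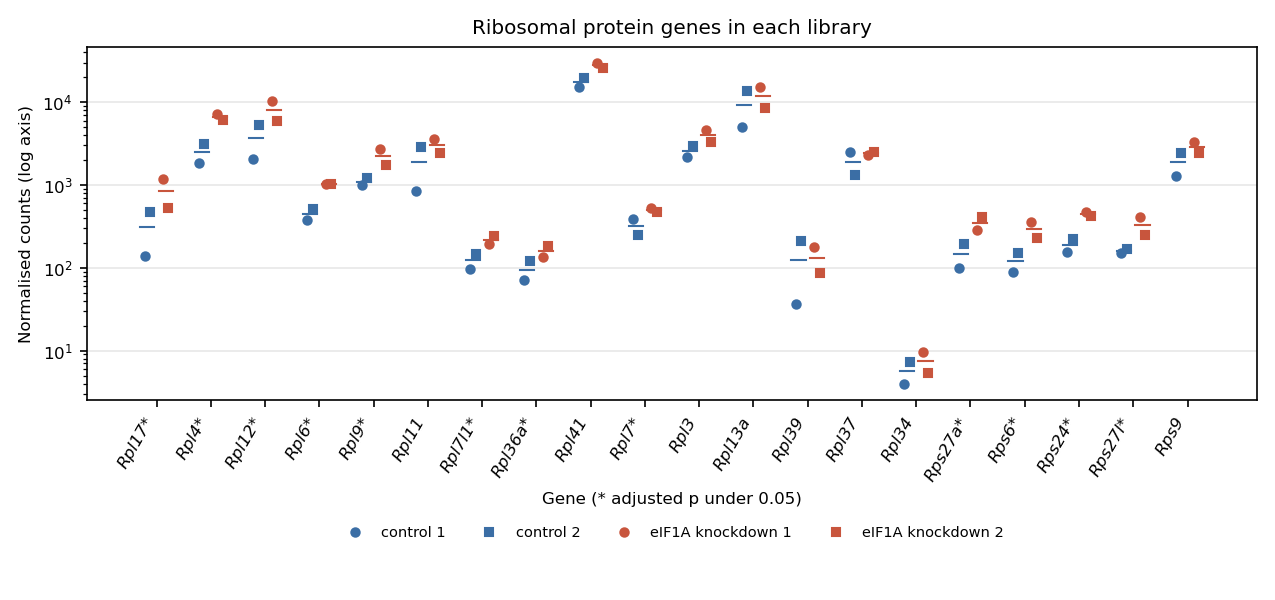
Normalised counts (log axis) of the 20 ribosomal protein genes in 2 control (blue) and 2 eIF1A knockdown (red) libraries, 1 point per library, circles for replicate 1, squares for replicate 2 and short lines at group means; stars mark the 12 genes with an adjusted p under 0.05. Both knockdown points lie above both control points for 14 genes, and control 1 is the lowest point for 18 genes.

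Without overlap, 14 of 20 ribosomal protein genes had both knockdown libraries above both controls, and 0 had both below. Among all genes tested, 32.4% were of the former kind and 35.5% of the latter. The libraries within each group also differed. Control 2 was above control 1 for 18 of 20 ribosomal protein genes, with a median difference of 0.74 on the log2 scale, against 43.1% of all genes and a median of −0.08. Knockdown 1 was above knockdown 2 for 16 of 20, with a median difference of 0.48, against 47.6% of all genes and −0.03. In factor genes these medians were 0.13 and −0.01. Relative to each gene's mean over the 4 libraries, the ribosomal protein genes had medians of −0.82 and −0.14 (controls) against 0.64 and 0.24 (knockdowns). The gap between the closest libraries of the groups, control 2 and knockdown 2, was thus smaller than the gap within controls. Ribosomal protein genes called higher numbered 10 without control replicate 1, 16 without control replicate 2, 9 without knockdown replicate 1 and 14 without knockdown replicate 2, and their median ran from 0.64 to 1.18. In the same fits 14.9%, 16.5%, 10.7% and 9.51% of all genes rose. Rpl39 turned from a log2 fold change of 0.48 to −0.78 without control replicate 1, where it was called lower (adjusted p = 0.0381) with 18.2% of all genes, and to 1.74 without control replicate 2, where it was called higher. Rpl13a was likewise called higher without control replicate 2 or knockdown replicate 2, and Rpl37 without control replicate 1.

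**Figure D2:**
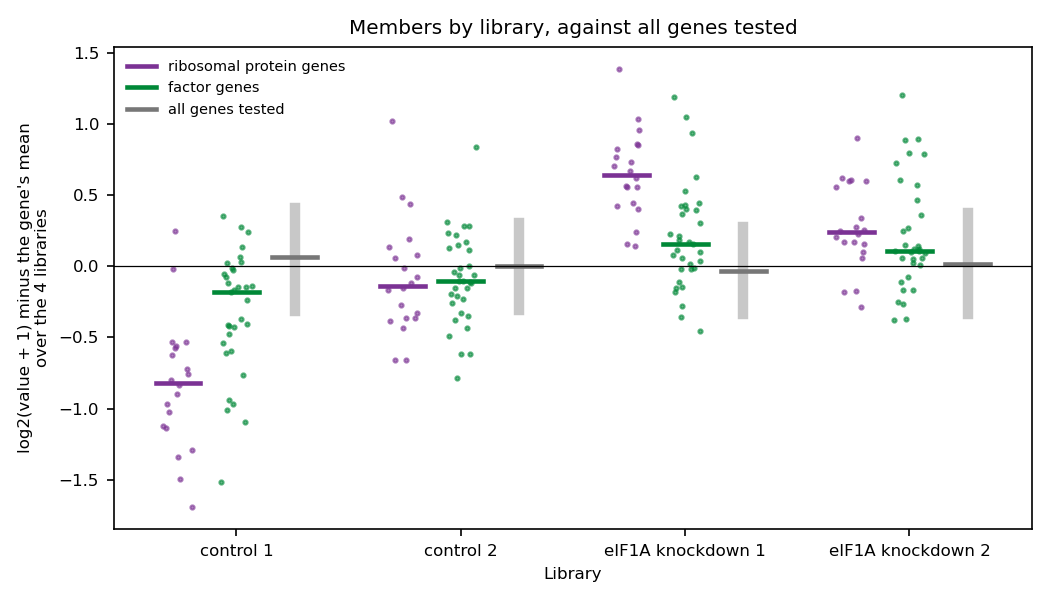
For each library (horizontal axis), log2(value + 1) of each tested gene minus that gene's mean over the 4 libraries (vertical axis), for 20 ribosomal protein genes (purple), 33 factor genes (green) and all 4605 genes tested (grey bar from the 25th to the 75th percentile); thick lines are medians. Ribosomal medians run from −0.82 in control 1 to 0.64 in knockdown 1, while medians of all genes stay between −0.03 and 0.06.

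Of the 12 rises of ribosomal protein genes, 6 were still called whichever library was left out: Rpl4, Rpl6, Rpl17, Rps6, Rps24 and Rps27a. Calls were lost without control replicate 1 for Rpl12, Rpl36a and Rpl7l1, and without control replicate 2 for Rpl7. They were lost without knockdown replicate 1 for Rpl7, Rpl9 and Rps27l, and without knockdown replicate 2 for Rpl7, Rpl36a and Rpl7l1. Over these fits the rise of Rpl17 ranged from 1.66-fold to 5.66-fold and that of Rpl12 from 1.48-fold to 3.76-fold. Rpl4, Rpl6, Rps6 and Rps24 were called in each of the 19 other settings tried, with adjusted p-values up to 0.0467. Without its mean-variance trend, limma called 4 ribosomal protein genes higher, where 10.9% of all genes rose. With a trend on transcript GC content removed it called 7, where 14.6% of all genes rose. The calls lost there were those of Rpl7, Rpl7l1, Rpl9, Rpl17, Rpl36a and Rps27l, while Rpl41 gained one. DESeq2 called 10 ribosomal protein genes higher, and 620 of all 4605 genes. There the calls of Rpl12, Rpl17 and Rpl36a were lost, while Rpl41 gained one.

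Near-identical copies limit how well reads can be assigned to ribosomal protein genes. The last 300 bases of each member's longest annotated coding transcript were compared with all GENCODE M21 transcripts. Whether that transcript is the form expressed in these cells was not checked. A stretch of at least 60 bases with at least 95% identity to an annotated pseudogene was found for 12 of 20 ribosomal protein genes and 4 of 36 factor genes. Among the ribosomal protein genes that rose, 8 of 12 had such a copy. Rpl17 had 35 of them, Rps6 and Rps27a 10 each, Rpl9 9, Rpl7 and Rpl36a 7 each, and Rpl4 and Rpl7l1 1 each. None was found for Rpl6, Rpl12, Rps24 or Rps27l by this search, which covered only the last 300 bases. By name, Rpl12 and Rps24 have 2 annotated pseudogenes each. Counts of genes with copies are uncertain to that extent.

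Start-site sequences were read to show the terminal oligopyrimidine tract, which translation control of this gene family is known for. RefSeq promoter windows (GRCm38.p6, 250 bases before to 50 after the annotated start) were matched for 46 of 56 members. Each piece below is 30 bases on the sense strand, with the tract in capitals: the first 5 lie within 5 bases of the annotated start, and Rpl4 and Eef2 have theirs 17 bases before and 15 bases after it.
Rps6, chr4:86857349-86857378, minus strand: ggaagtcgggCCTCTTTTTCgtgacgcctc
Rpl12, chr2:32961704-32961733, plus strand: caggatccgtCTTTTCggctttcggctcgg
Rps9, chr7:3704026-3704055, plus strand: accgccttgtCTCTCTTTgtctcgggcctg
Rpl13a, chr7:45128724-45128753, minus strand: tgcgacaagaCCTCCTCCTTTCCCaggcgg
Eef1a1, chr9:78481710-78481739, minus strand: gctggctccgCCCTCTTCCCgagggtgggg
Rpl4, chr9:64173360-64173389, plus strand: agtgacaagtCTTTCCTTTTCCTgtgggag
Eef2, chr10:81176636-81176665, plus strand: cgtcagcggtCTCTTCCgccgcagccgccg

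Rps6, Rpl12 and Rpl4 rose, whereas Rps9, Rpl13a, Eef1a1 and Eef2, with like tracts, did not pass. A C within 5 bases of the start, followed by at least 4 pyrimidines on the sense strand, was found in 8 of 16 ribosomal protein genes with a window (50%), 6 of 30 factor genes (20%), 24.0% of the table's genes and 21.2% of all genes with a window. Of ribosomal protein genes with such a tract 4 of 8 rose, and of those without it 5 of 8 rose. Within 20 bases of the start, a distance chosen after the sequences were seen, the shares were 75%, 46.7%, 54.1% and 53.3%. The E-box CACGTG, the same on both strands, was in 2 of 16 ribosomal protein genes (12.5%), 9 of 30 factor genes (30%), 13.5% of the table's genes and 8.09% of all genes with a window. TGATGNAA, letters of an ATF4-type composite element searched on both strands, was in 0 of 16 ribosomal protein genes, in Eef2k alone of 30 factor genes, in 2.77% of the table's genes and in 4.51% of all genes.

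Core initiation factors gave no call as reported, but several did in other settings. Of the 5 tested subunits of eIF2 and eIF2B, 0 were called by limma. Of the same 5, 0 had an unadjusted p under 0.05, against 2110 of all 4605 genes tested. At equal totals 2 of 5 rose, as did 4 of 7 eIF3 subunits and 3 of 6 eIF4 factors, where 28.2% of all genes rose. With the GC trend removed Eif3b (log2 fold change 0.59, adjusted p = 0.0382) and Eif4g1 (0.74, adjusted p = 0.0245) rose. In limma without its trend Eif3e did (adjusted p = 0.0463). In those fits 14.6% and 10.9% of all genes rose. Eif2b5, the catalytic subunit of eIF2B, had 517 and 506 in controls and 567 and 593 in knockdowns, a difference of 0.18 with a 95% interval of −0.25 to 0.62 on the log2 scale. Eif2b1, a regulatory subunit, had 150 and 139, then 159 and 157 (interval −0.38 to 0.64). Eif2b4, also regulatory, went the other way without overlap, from 485 and 514 to 388 and 392 (log2 fold change −0.36, interval −0.80 to 0.09, adjusted p = 0.203), and stood at 0.10 with the GC trend removed. Eif2b3 had 10.8 and 13.0, then 33.1 and 17.0, and did not pass (adjusted p = 0.148). Eif2s2, which encodes eIF2 beta, had a single read in control 1. It had 0.98 and 5.68 in controls, then 6.46 and 9.51 in knockdowns, and the ratio of summed reads, corrected for the deposited scaling of the libraries, was 2.28 (exact 95% counting interval 0.98 to 5.92).

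Of 7 eIF3 subunits, 0 were called, and the median log2 fold change was 0.26. Only 1 of the 7 (Eif3e) had an unadjusted p under 0.05, against 2110 of all 4605 genes tested. Eif3b, a scaffold subunit, had 1224 and 1342 in controls and 1479 and 1482 in knockdowns, so the groups were close but did not overlap (log2 fold change 0.21, interval −0.23 to 0.64). Eif3d, which can bind the cap of some mRNAs, had 2261 and 1988, then 2180 and 2453, with overlapping groups (interval −0.32 to 0.57). Eif3c went from 2155 and 1725 to 2518 and 2698 (log2 fold change 0.43, adjusted p = 0.127). Eif3e, at 6.89 and 12.2 in controls and 19.4 and 25.8 in knockdowns, had the largest eIF3 difference and missed the threshold (log2 fold change 1.20, adjusted p = 0.0782). Eif3a, the largest subunit, had 51.2 and 60.1, then 56.5 and 128, and only knockdown 2 stood apart. Eif3m had 34.4 and 48.7, then 58.1 and 41.4, and its log2 fold change of 0.26 was −0.21 with the GC trend removed.

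Eif3h, a peripheral subunit with a pseudogene copy, was the least stable member of its complex. Its controls of 1027 and 3118 enclosed its knockdowns of 1987 and 1470. The log2 fold change of −0.07 became 0.73 without control replicate 2 (adjusted p = 0.0185) and −0.87 without control replicate 1, where it was called lower.

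Among the eIF4 factors 0 of 6 tested genes were called, and the median log2 fold change was −0.06. An unadjusted p under 0.05 was found for 3 of the 6, against 2110 of all 4605 genes tested. Eif4a1, the RNA helicase of the cap-binding complex, had 503 and 628 in controls and 920 and 727 in knockdowns (log2 fold change 0.54, adjusted p = 0.0606). Eif4a3, its paralogue in the exon junction complex, is counted among the 6 by its symbol alone. Eif4a3 had 1769 and 1822, then 1347 and 1160 (−0.52, adjusted p = 0.0578). Neither pair of groups overlapped, and their directions were opposite. At equal library totals Eif4a1 was called higher and Eif4a3 stood at −0.17. Their ratio within a library, Eif4a1 over Eif4a3, does not depend on the scaling. It was 0.284 and 0.345 in controls, then 0.683 and 0.627 in knockdowns. Eif4g1, the scaffold that links the cap to eIF3, had 816 and 719, then 910 and 1243 (log2 fold change 0.47, adjusted p = 0.099).

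The helicase cofactors Eif4b and Eif4h had fold changes of −0.35 and −0.33 on the log2 scale, with overlapping groups. Both differences lost their sign at equal library totals, at 0.0029 and 0.0191. Eif4b had 587 and 684 in controls and 409 and 604 in knockdowns, and Eif4h had 1822 and 2225, then 1401 and 1823. Eif4e2, a homologue of the cap-binding protein, had 483 and 513, then 597 and 554 (interval −0.23 to 0.65). Eif4enif1, which carries eIF4E to the nucleus, had 82.7 and 84.4, then 92.8 and 121 (adjusted p = 0.366). Eif4e itself was under the filter on low values, with 0.98 and 4.87 (controls) against 1.61 and 0.68 (knockdowns). The scaled ratio of its summed reads was 0.355 (counting interval 0.0593 to 1.56), so a difference was not detectable at this depth.

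Of the 5 other initiation factors tested, Eif6 and Eif1b rose, against 15.9% of all genes tested. Eif6, which keeps free large subunits from joining small ones, had 2297 and 2558 in controls and 4403 and 3362 in knockdowns (1.59-fold, adjusted p = 0.0263). Eif1b, a close paralogue of the scanning factor eIF1, had 85.6 and 123, then 203 and 140 (1.64-fold, adjusted p = 0.0496). The groups did not overlap in either gene, but both calls were lost without control replicate 1 and without knockdown replicate 1. The call of Eif1b was also lost with the replicate number as a block (6 factor genes called), at a pseudocount of 0.5, without the limma trend and in DESeq2. Eif6 also lost its call without the limma trend. Eif1ad, which encodes a protein with an eIF1A-like domain, had 43.3 and 55.2 in controls and 67.0 and 68.6 in knockdowns (log2 fold change 0.46, interval −0.19 to 1.12). Eif2d, which can deliver initiator tRNA without eIF2, had 710 and 624, then 781 and 787 (interval −0.20 to 0.67). Eif5a, the hypusine-bearing factor that helps ribosomes through difficult peptide bonds, had 5865 and 6388, then 8633 and 5366, with knockdown 2 the lowest library and knockdown 1 the highest. Denr, a partner of Mcts1 in recycling and reinitiation, was under the filter, with 3.94 and 0.81 in controls and 2.42 and 7.47 in knockdowns (scaled ratio of summed reads 2.32, counting interval 0.79 to 8.24).

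**Figure D3:**
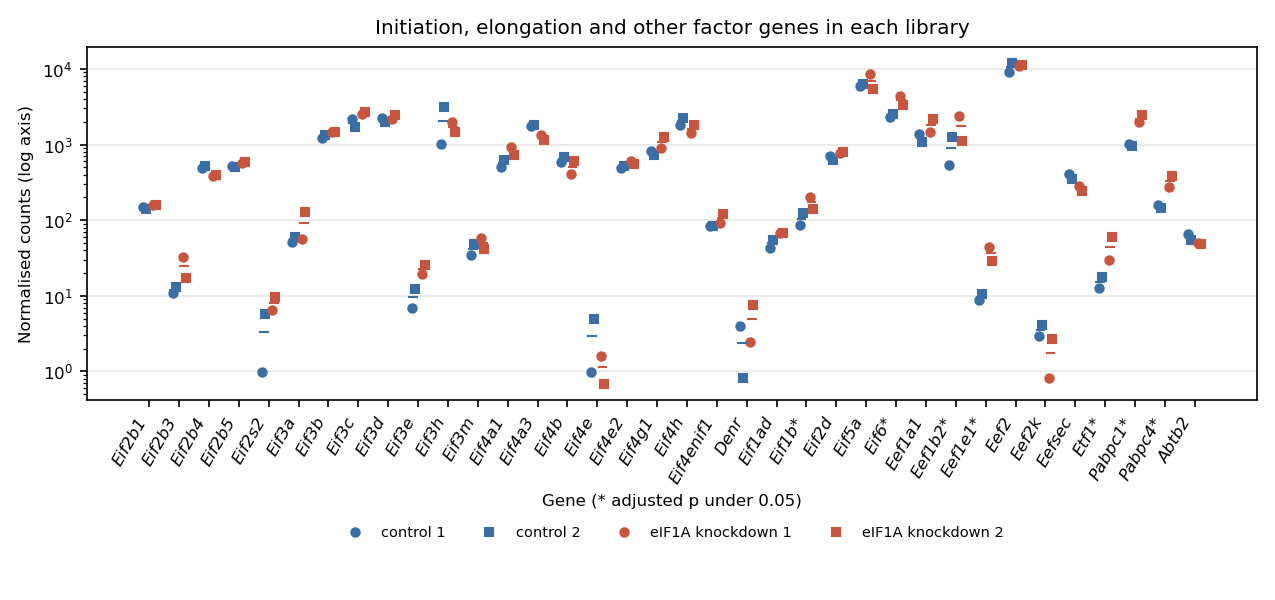
Normalised counts (log axis) of the 36 factor genes ordered by class in 2 control (blue) and 2 eIF1A knockdown (red) libraries, 1 point per library, circles for replicate 1, squares for replicate 2 and short lines at group means; stars mark the 7 genes with an adjusted p under 0.05. Of the 33 tested, groups overlap in 9, knockdowns lie above controls in 20 and below in 4. Over all genes tested 32.4% lie above and 35.5% below. The gap can be small, as for Eif2b1 (150 in the higher control, 157 in the lower knockdown), while Pabpc1 goes from 959 and 1012 to 1977 and 2429.

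Among the 5 tested genes grouped here by an Eef symbol, 2 rose and 0 fell, against 15.9% and 21.6% of all genes tested. Eef1e1, also called p18, which sits in the complex of aminoacyl-tRNA synthetases, had 8.86 and 10.6 in controls and 44.4 and 29.2 in knockdowns. Both knockdowns were clearly above both controls (3.47-fold, log2 fold change 1.79, SE 0.47, adjusted p = 0.0051), but control 1 held only 9 reads. The scaled ratio of summed reads was 3.69 (counting interval 2.31 to 6.16), and without knockdown replicate 1 the call was lost (adjusted p = 0.116). Eef1b2, the nucleotide exchange factor of eEF1A, was called although its groups overlapped, with 543 and 1268 in controls and 2395 and 1099 in knockdowns (1.95-fold, adjusted p = 0.0307). With 1 library left out its rise ranged from 1.28-fold to 2.98-fold, and the call was lost without control replicate 1 and without knockdown replicate 1. It was also lost without the limma trend (adjusted p = 0.218), in DESeq2 (0.378) and with the GC trend removed (log2 fold change 0.53, adjusted p = 0.401).

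Eef1a1, which carries aminoacyl-tRNA to the ribosome, had 1365 and 1097 in controls and 1469 and 2202 in knockdowns and did not pass (log2 fold change 0.55, adjusted p = 0.0681). Eef2, the translocase, had 9121 and 11960, then 11032 and 11180, with both knockdowns between the controls (log2 fold change 0.09, interval −0.44 to 0.62). Eefsec, which delivers selenocysteinyl-tRNA, went from 403 and 355 to 285 and 242 without overlap (log2 fold change −0.52, interval −0.99 to −0.06, adjusted p = 0.0718), and stood at −0.17 at equal totals. Eef2k, the kinase that inhibits eEF2, was under the filter, with 2.95 and 4.06, then 0.81 and 2.72 (scaled ratio of summed reads 0.518, counting interval 0.133 to 1.797).

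Termination and poly(A)-binding factors rose in each of the 3 members tested, against 15.9% of all genes tested. Pabpc1, the main cytoplasmic poly(A)-binding protein (chromosome 15, 36595661 to 36609668, minus strand), had 1012 and 959 (controls) against 1977 and 2429 (knockdowns). The controls were nearly equal and both knockdowns lay well above them (2.22-fold, SE 0.21 on the log2 scale, adjusted p = 3.22e-04). Its fold change was 2.01 to 2.46 with a library left out, and it was the factor gene called in each of the 19 other settings. Pabpc4, a paralogue, went from 160 and 146 to 277 and 389 (2.14-fold, adjusted p = 0.0015), and without knockdown replicate 2 its adjusted p was 0.052. Pabpc4 stood to Pabpc1 at 0.159 and 0.152 in controls, then at 0.140 and 0.160 in knockdowns. Etf1, the release factor eRF1, went from 12.8 and 17.9 to 29.9 and 59.8 (2.69-fold, adjusted p = 0.0162), with knockdown 2 well above knockdown 1. Without knockdown replicate 2 its rise was 1.91-fold and not called (adjusted p = 0.304). Removing the GC trend also lost the call (log2 fold change 0.96, adjusted p = 0.103). Abtb2, an ankyrin-repeat and BTB-domain protein that the symbol rule takes in, had 65.9 and 54.4 in controls and 50.05 and 48.2 in knockdowns (log2 fold change −0.28, adjusted p = 0.525).

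**Figure D4:**
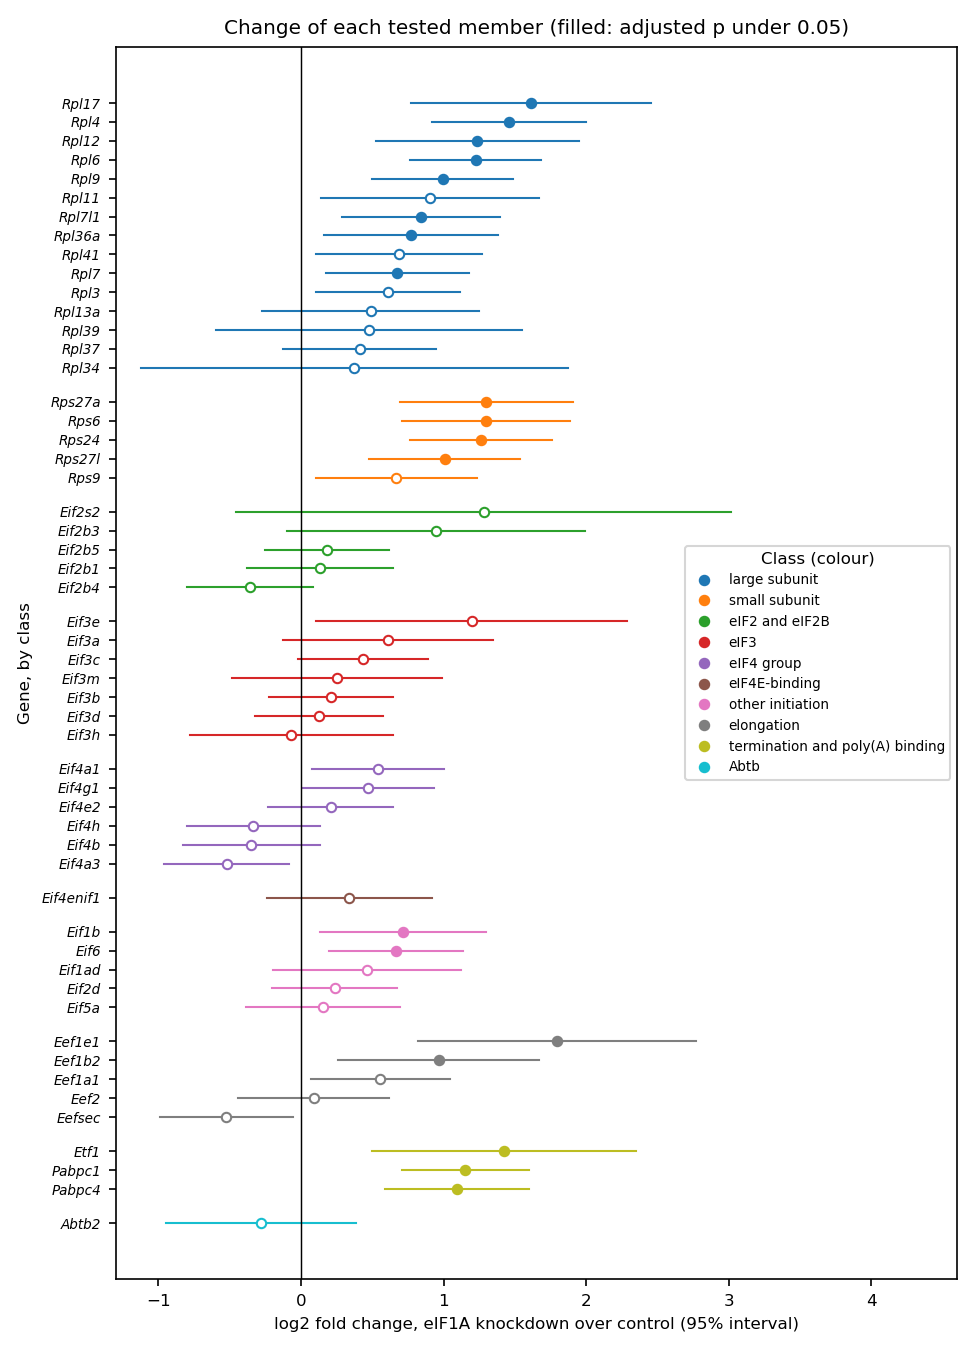
Log2 fold change of knockdown over control (horizontal axis) with its 95% limma interval for the 53 tested members, grouped and coloured by class (vertical axis); filled points passed an adjusted p of 0.05. All 20 ribosomal protein points lie right of 0, from 0.37 to 1.61, as reported in the deposited scaling, while the 33 factor points run from −0.52 to 1.79; without control replicate 1 Rpl13a, Rpl34 and Rpl39 lie left of 0, without control replicate 2 Rpl37 does, and without knockdown replicate 1 Rpl39 does.

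The subclasses can be set side by side. Medians were 0.77 for the 15 large subunit genes and 1.26 for the 5 small subunit genes. They were 0.18 for eIF2 and eIF2B, 0.26 for eIF3 and −0.06 for the eIF4 factors, Eif4a3 included. Eef genes, Eef1e1 included, had 0.55, and termination and poly(A)-binding factors had 1.15. Log2 fold changes above 0 were seen in 20 of 20 ribosomal protein genes and 26 of 33 factor genes, against 2277 of all 4605 genes tested. Groups that did not overlap, with knockdowns above, were seen in 14 of 20 and 20 of 33, and with knockdowns below in 0 and 4. Over all genes tested the shares were 32.4% above and 35.5% below. The difference between the kinds was not tested, since genes of a kind are not replicates. Median transcript GC content was 49.2% for ribosomal protein genes, 50.3% for factor genes and 51.4% for all genes tested, and median transcript length was 1198, 2556 and 3088 bases. For GC content, the setting given above removes a trend from each library, which may also remove an effect of knockdown that goes with GC. The part of GC content or of length in the difference between the kinds was not tested.

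Other translation genes, on a list of 68 that excludes the members, were in the table in 30 cases and tested in 29. Of these 7 rose and 2 fell, with a median log2 fold change of 0.43, while 15.9% of all genes tested rose and 21.6% fell. Tpt1 had 884 and 1404 in controls and 3336 and 2885 in knockdowns (2.78-fold, adjusted p = 8.76e-05). Ybx1, an mRNA-binding protein, went from 1042 and 1270 to 2824 and 3288 (2.65-fold, adjusted p = 5.79e-05). Dph3, needed for the diphthamide of eEF2, went from 11.8 and 18.7 to 67.0 and 48.2 (3.65-fold, adjusted p = 0.0014). Nap1l1, a histone chaperone, went from 120 and 157 to 256 and 291 (1.98-fold, adjusted p = 0.0035). In each of these 4 genes both knockdown libraries were above both controls. Gnb2l1 was not called, with 9566 and 15660 in controls and 19370 and 10290 in knockdowns (adjusted p = 0.644). Nor was Naca (adjusted p = 0.114). The genes that fell were Abcf3 and Mknk2, a kinase of eIF4E, by 0.74 and 0.67 on the log2 scale.

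Counts of called members move with the setting, as does the share over all genes. Under quantile normalisation 33 members rose, with 17.5% of all genes. At an adjusted p under 0.1 there were 27 rises and 2 falls (Eif4a3 and Eefsec) among members, with 19.9% and 25.2% of all genes. With the replicate number as a block 19 members and 13.9% of all genes rose. With crossed numbers 27 rose and 2 fell, with 19.3% and 25.1% of all genes.

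**Figure D5:**
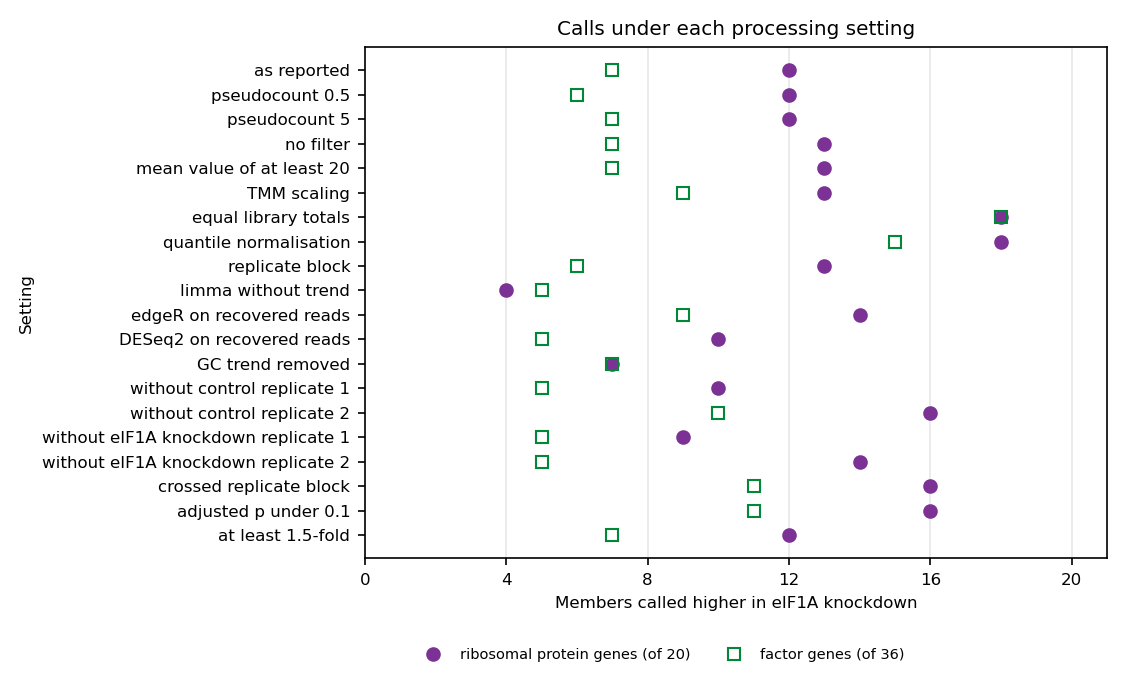
Number of ribosomal protein genes (filled circles, of 20) and factor genes (open squares, of 36) called higher in knockdown (horizontal axis) under each processing setting (vertical axis). Ribosomal calls run from 4 in limma without its trend to 18 at equal library totals or under quantile normalisation, against 12 as reported, and factor calls from 5 to 18 against 7.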

How the data were processed

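Libraries of 2 control and 2 knockdown samples were grouped and numbered by their titles. The authors deposited a signal called normalised counts in the file name; STAR, HTSeq, DESeq2, cutadapt 1.8.3, bcl2fastq 2.17.1.14 and mm10 appear, without roles, per the submitters' processing notes. Not given in the sources used here: molecular identifiers, strand, scaling factors, gene selection. Each column's values were whole multiples of 1 step (100% within 0.01 read), so reads were recovered. No gene was at 0. The test was limma 3.58.1 in R 4.3.3, trended on mean, run on log2(value + 1) for 4605 genes with a mean of at least 5, unblocked, Benjamini-Hochberg adjusted. Fold changes are on that scale, which understates changes of low genes. On recovered reads edgeR 4.0.16 called 807 genes higher and 909 lower, and DESeq2 1.42.0 called 620 and 828. Scripts were tested on simulated data. All 56 members matched GENCODE M21. Alternatives were pseudocounts, filters, scalings, tests, thresholds, a replicate block, GC trend removal (loess, span 0.5) and left-out libraries, where a lone sample is assumed to vary like the other group. The members and lists were chosen with earlier results of these data known. Named were all called members, in each class the most abundant and the largest uncalled change, and the other members by value. The 4 other translation genes of smallest p were also named. Abcf3, Mknk2, Gnb2l1 and Naca were named after their values were seen.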

Additional observations from a re-analysis of the deposited data

How the results depend on the processing

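Counts and medians below are for members, as reported first. Rises numbered 19 (12 ribosomal, 7 factor genes). Equal library totals gave 36 (18 factor genes; medians 1.22 for ribosomal and 0.69 for factor genes), quantile normalisation 33 (15 factor genes; factor median 0.60), limma without trend 9 (4 ribosomal), and GC trend removal 7 ribosomal. At an adjusted p under 0.1 there were 11 factor rises and 2 falls. The factor median of 0.34 was 0.30 with no filter, 0.25 at a mean of at least 20, 0.40 with TMM scaling, 0.42 in edgeR, 0.40 in DESeq2 and 0.26 to 0.38 with a library left out. Falls were 0 to 2 and rises 14 to 26 with a library left out. Same-numbered libraries deviated with a correlation of −0.129 across genes. It rests on a single difference per group, so it cannot decide whether equal numbers share a culture or batch. With the replicate number as a block 19 members rose (13 ribosomal, 6 factor genes). With crossed numbers, chosen after seeing the data, 27 rose (11 factor genes) and 2 fell. Log2 fold changes of uncalled members that changed sign were: at equal totals Abtb2 0.0658, Eif3h 0.29, Eif4b 0.0029 and Eif4h 0.0191; under quantile normalisation Eif3h 0.29 and Eif4h 0.0596; with the GC trend removed Abtb2 0.34, Eif2b4 0.10, Eif3m −0.21 and Eif4h 0.0155. With a library left out they ran from −0.11 to 0.28 for Eef2, −0.24 to 1.22 for Rpl13a, −0.0021 to 0.75 for Rpl34, −0.78 to 1.74 for Rpl39, −0.87 to 0.73 for Eif3h, −0.0428 to 0.86 for Rpl37 and −0.19 to 0.50 for Eif5a. The cause of these shifts was not tested. No called member changed sign in any setting. Denr, Eef2k, Eif4e, Eif2s2 and Rpl34 had under 5 reads in a library, which limits what can be seen of them.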
